A study of Arabidopsis thaliana with 4 samples.

Results

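The genes described here act on auxin, the growth hormone indole-3-acetic acid, or on its signal. They are WES1, GH3.17 and GH3.9 of the GH3 family, the glucosyltransferase gene IAGLU and the Aux/IAA repressor gene IAA18, 5 genes chosen by their annotated symbols among the 13513 probe sets paired with a single gene, of 22746 in all. Each had 1 probe set. The genes were chosen with their T24 and T0 values already known, so those values are given as a description and support no test.

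RNA was measured on 4 Affymetrix arrays of Arabidopsis thaliana, ecotype Ler-0, and the labels name no transgene. All inflorescences were immature, came from the primary bolts of plants 5 weeks old grown under 16 h of light a day at 20 to 22 °C, and were cut 11 h into the light period. The T0 group (2 arrays) was frozen at cutting, and the T24 group (2 arrays) lay for 24 h at 21 °C on wet paper in a closed black box. Material from 10 plants was pooled for each time point. The labels call the arrays of a group biological replicates 1 and 2 without saying whether each had a pool of its own. The errors given thus rest on the spread between these arrays. Standard errors of the fit also draw on the spread over all probe sets. Cutting, darkness, loss of supply from the plant and the passing of a day come together in T24, and their effects cannot be told apart.

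Cells hold the level of free auxin in check in several ways. GH3 enzymes join auxin or other acidic hormones to amino acids, and glucosyltransferases such as IAGLU join auxin to glucose. Conjugates with aspartate or glutamate are generally taken as a step toward breakdown, while others can be split again to release the hormone. Free auxin is sensed by the TIR1/AFB receptors, which mark Aux/IAA repressors for destruction and so release the auxin response factors that these repressors hold back. In flowers auxin guides the start and growth of floral organs, and many GH3 and Aux/IAA genes are themselves switched on by it.

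The signals of WES1, IAGLU and GH3.17 were far higher after 24 h, IAA18 was about 2-fold higher, and GH3.9 was lower. Values are RMA signals on the log2 scale, a scale on which a difference of 1 is 2-fold, and a change is the T24 mean minus the T0 mean, given with its standard error (SE) from the fit across all probe sets. Levels of different probe sets are not compared, since each probe set has its own response.

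WES1, also called GH3.5, encodes an enzyme that joins amino acids to auxin and is known for its induction by stress and by salicylic acid. Its log2 signal was 7.16 and 6.66 on the T0 arrays and 11.61 and 11.00 on the T24 arrays. Both T24 arrays lay above both T0 arrays, and the smallest difference between a T24 and a T0 array was 3.84. The mean went from 6.91 ± 0.35 to 11.30 ± 0.43 (SD, n = 2 each). WES1 thus rose by 4.39 ± 0.32 (SE), which is 21.0-fold. Ordered by change from the largest rise down, WES1 stood at place 77 of 22746.

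GH3.17 encodes an enzyme that joins auxin to glutamate. Its log2 signal was 4.96 and 4.34 at T0, and 7.27 and 6.59 at T24. The groups did not overlap, with at least 1.63 between a T24 and a T0 array. The change was 2.28 ± 0.36 (SE), or 4.87-fold, from 4.65 ± 0.43 to 6.93 ± 0.48 (SD, n = 2 each). Both T0 arrays lay under 5, a range where RMA signals are near the background and differences are compressed, so the fold is approximate.

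GH3.9, a putative auxin-amido synthetase of the same family whose loss is known to alter root growth, went the other way. It read 4.82 and 5.44 on the T0 arrays and 4.02 and 4.27 on the T24 arrays. The T24 arrays lay below the T0 arrays by at least 0.56, and all but the higher T0 array were under 5. The means were 5.13 ± 0.44 and 4.14 ± 0.17 (SD, n = 2 each), and their difference was -0.99 ± 0.29 (SE), or 1.98-fold lower.

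IAGLU is annotated as the indole-3-acetate beta-D-glucosyltransferase, which forms the glucose ester of auxin. Its signal was 4.82 and 5.36 on the T0 arrays, near the background, and 8.19 and 9.18 on the T24 arrays. The lower T24 array stood 2.83 above the higher T0 array. From 5.09 ± 0.38 to 8.69 ± 0.70 (SD, n = 2 each), the change was 3.60 ± 0.43 (SE), or 12.1-fold, at place 202 of 22746 from the largest rise. As for GH3.17, the low T0 signals make the fold and the place approximate. Of the 5 genes IAGLU had the widest spread within T24.

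IAA18 encodes an Aux/IAA repressor, and stabilised forms of it are known to disturb cotyledon and lateral root formation. It read 7.58 and 7.29 at T0, and 8.47 and 8.49 at T24. All 4 arrays were above 5, the T24 arrays were nearly equal, and the groups lay 0.89 apart at their closest. The mean rose from 7.44 ± 0.20 to 8.48 ± 0.01 (SD, n = 2 each), by 1.04 ± 0.20 (SE) or 2.05-fold.

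**Figure D1:**
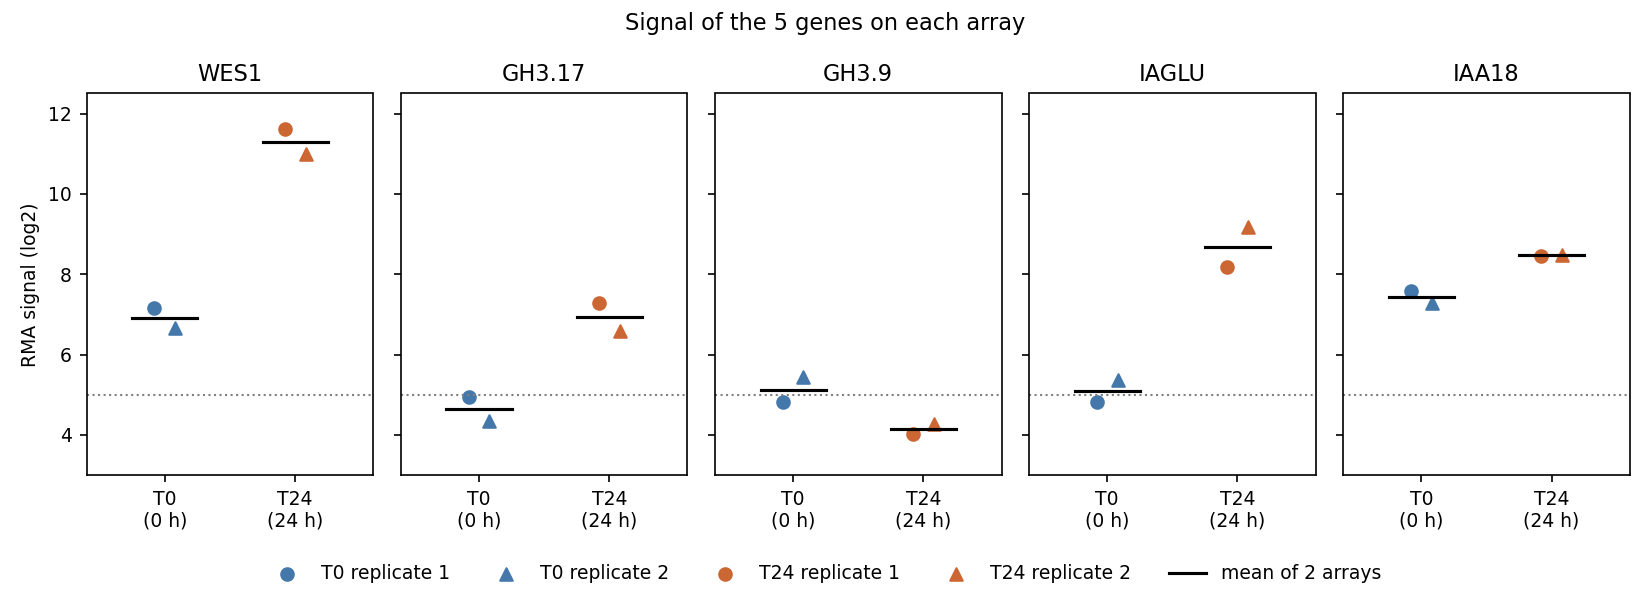
RMA signal (log2, vertical axis) of WES1, GH3.17, GH3.9, IAGLU and IAA18 on the T0 and T24 arrays, with circles for replicate 1, triangles for replicate 2, a black line for the mean of the 2 arrays and a dotted line at a signal of 5. In every panel the groups are separate, with T24 above T0 for 4 genes and below it for GH3.9, whose means are 5.13 and 4.14.

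In limma with Benjamini-Hochberg adjustment over all probe sets, 4 of the 5 genes passed an adjusted p of 0.05, all higher at T24, and GH3.9 did not. The background is 13.2% of 22746 probe sets called, 6.39% higher and 6.84% lower. For each of the 5 genes the T0 and T24 arrays were separate, as they were for 57.4% of all probe sets, 27.4% with T24 higher and 30% with T24 lower. Nothing is read from these counts, since this contrast was known when the genes were chosen. The median change was 2.28 for the 5 genes and -0.005 for all probe sets, and for the same reason nothing is read from this difference. The call of IAA18 was just inside the threshold (adjusted p = 0.0482 in limma) and was lost with an intensity trend (0.0705), a robust variance model (0.0512), quantile normalization (0.0543) and a filter at a mean of 5 (0.0551). With any 1 array left out, limma called 0 of 22746 probe sets, while 4888 to 5942 had an unadjusted p under 0.05, so no call here holds without all 4 arrays.

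**Figure D2:**
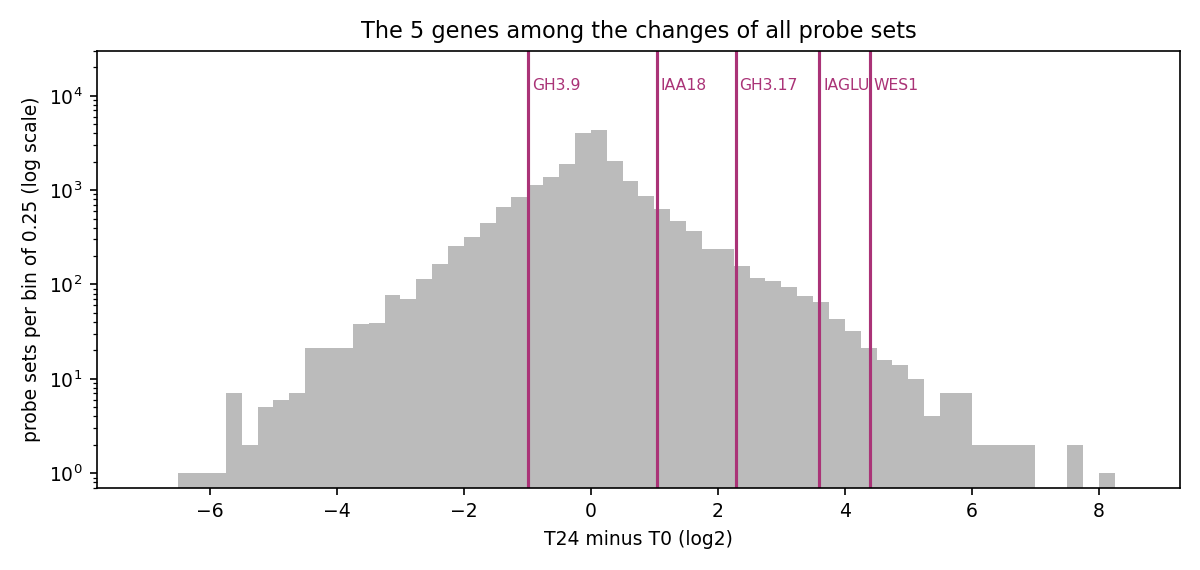
Number of probe sets (vertical log axis) by change, T24 minus T0 (log2, bins of 0.25), for all 22746 probe sets, with the changes of WES1, GH3.17, GH3.9, IAGLU and IAA18 as vertical lines. WES1 at 4.39 and IAGLU at 3.60 lie in the thin upper tail, while IAA18 at 1.04 and GH3.9 at -0.99 lie in the broad shoulders.

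Among the other measured genes of the auxin lists there was 1 call. Lists by role held 136 genes, of which 32 were measured by a probe set of their own. For the rest the annotation used gave no such probe set, and it left 8730 of 22746 probe sets without a gene. Whether the array holds probes for those genes is not known here, so the counts do not survey the pathway. Without the 5 genes, 27 of the 32 were left. In limma 1 of them rose, 0 fell and 26 did not pass, against 13.2% of all probe sets called. At an unadjusted p under 0.05 there were 4 of the 27, against 30.4% of all probe sets. Their median change was 0.09. Of the 27, 19 had a mean under 5, where small differences cannot be seen. Among the 8 brighter ones 1 was called, and it was higher, against 19.7% called and 9.54% called higher of all probe sets with a mean of at least 5.

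Within the GH3 family 11 of 19 listed genes were measured, and the list was not limited to enzymes that act on auxin. Besides WES1, GH3.17 and GH3.9, limma called 0 of the other 8, of which 1 had an unadjusted p under 0.05, and their median change was -0.03. Over all probe sets these shares were 13.2% and 30.4%. Of the 8, 6 had a mean under 5, so nothing is read from these counts. GH3.3, an auxin-induced gene for an enzyme that joins amino acids to auxin, read 7.78 and 7.73 at T0 and 9.02 and 6.80 at T24. Its T24 arrays fell on either side of the T0 arrays, and its change was 0.16 ± 0.80 (SE). GH3.1 stayed near the background, with means of 3.77 and 3.68. Another 6 entries of this list are given in the gene table by locus code only, and 5 of these had a mean under 5. The exception, AT5G13380, read 9.56 and 9.80 at T0 and 7.51 and 5.78 at T24. Both of its T24 arrays were below both T0 arrays but far from each other. Its change of -3.04 ± 0.63 (SE) did not pass in limma (adjusted p = 0.0565), although it did with the trend (0.0392) and with the filter at a mean of 5 (0.0321). WES1 and AT5G13380, the list's extremes, differed in sign.

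Of 6 listed genes for glucosyl and methyl transferases that act on auxin, 4 were measured, and IAGLU had the only call. IAGLU was chosen with its change known, and 13.2% of all probe sets were called, so nothing is read from this count. UGT84B1 and UGT84B2, a pair of related glucosyltransferases, had means between 3.47 and 3.84 in both groups and changes of 0.09 each. UGT74D1, another auxin glucosyltransferase, read 7.65 and 5.61 at T0 and 6.68 and 5.67 at T24. Its groups overlapped, and its change was -0.46 ± 0.82 (SE). Of the list for auxin oxidation both entries were measured, and the gene table gives both by locus code only. AT1G14130 read 6.94 and 6.59 at T0 and 7.80 and 7.44 at T24, a change of 0.85 ± 0.25 (SE) that did not pass in limma (adjusted p = 0.107). AT1G14120 was near the background, with means of 3.50 and 3.36. The hydrolases that release auxin from its conjugates had 0 of 7 genes measured by name, so that side of the balance is not analysed here.

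For auxin synthesis, 4 of 22 listed genes were measured, all of the YUC family of flavin monooxygenases, which make the last step to indole-3-acetic acid. None was called in limma, and none had an unadjusted p under 0.05, against 13.2% and 30.4% of all probe sets. With 4 genes nothing is read from these counts. YUC2 read 5.26 and 5.83 at T0 and 5.97 and 6.17 at T24, and its change was 0.52 ± 0.27 (SE). YUC6 stood at 0.19 ± 0.37 (SE), and YUC4 and YUC11, with means under 5, at -0.39 and 0.03.

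Among the Aux/IAA repressors 7 of 29 were measured. The call of IAA18 was the only one, and limma called 0 of the other 6, of which 1 had an unadjusted p under 0.05. That one was IAA20, a repressor without the degron through which auxin acts, at 4.48 and 4.35 on the T0 arrays and 5.49 and 4.98 on the T24 arrays. Its groups did not overlap, but its change of 0.82 ± 0.25 (SE) did not pass (adjusted p = 0.12 in limma). IAA30, which also lacks the degron, stood at 0.23, IAA31 at 0.22, and IAA29, known for its induction by shade, at 0.09. IAA34 and IAA33 went to either side at 0.35 and -0.43, with means under 5. IAA18 had a mean of 7.96 over the 4 arrays, and of the other 6 only IAA30 had a mean above 5. Over all probe sets 13.2% were called and 30.4% had an unadjusted p under 0.05. With 6 genes, most of them dim, nothing is read from the counts of this list.

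The response genes gave the 1 call outside the 5 genes. HAT2, an auxin-inducible gene for a homeodomain-leucine zipper transcription factor, read 6.99 and 7.54 at T0 and 9.09 and 9.08 at T24. The T24 arrays were nearly equal and lay above both T0 arrays. HAT2 rose by 1.82 ± 0.26 (SE), from 7.26 ± 0.39 to 9.09 ± 0.01 (SD, n = 2 each; adjusted p = 0.0283 in limma), higher in 2 of 2 T24 arrays. LBD16 and LBD29, transcription factor genes of lateral root formation, were near the background, with changes of -0.07 and 0.13. Of the auxin transport list 1 of 19 genes was measured, the kinase gene WAG2, near the background with means of 3.52 and 3.56. The lists for response factors and for receptors with their ubiquitin ligase had 0 of 15 and 0 of 11 genes measured by name.

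**Figure D3:**
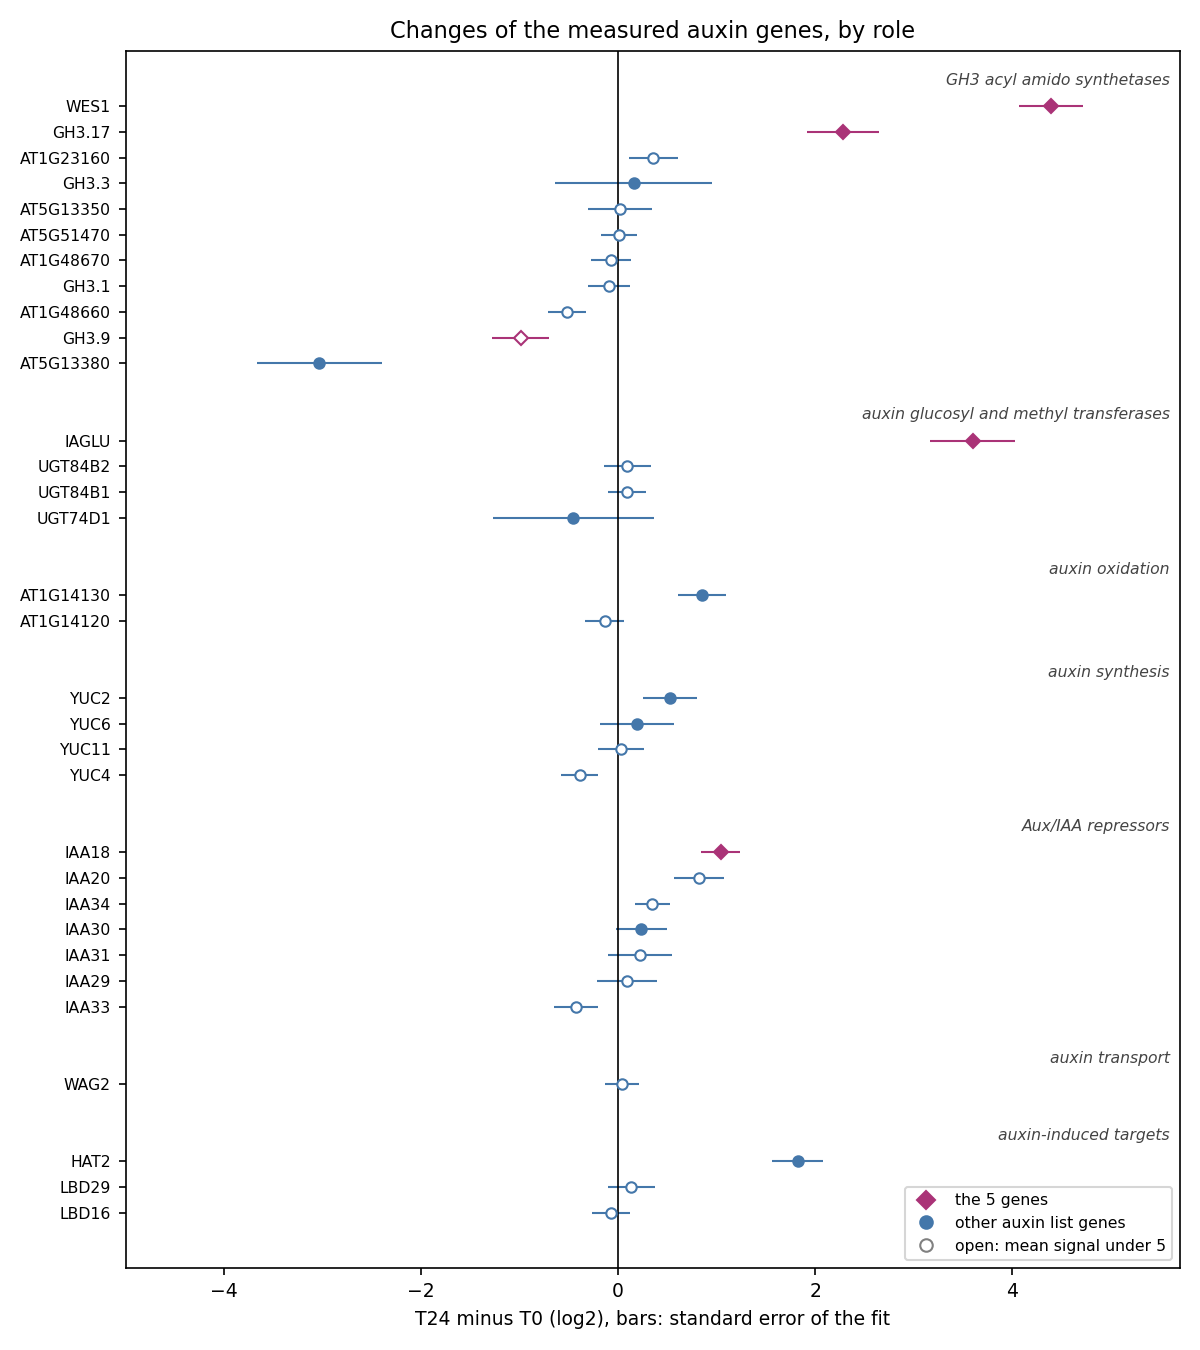
Change, T24 minus T0 (log2, horizontal axis), of the 32 measured genes of the auxin lists, grouped by role. Diamonds mark the 5 genes, circles the others, open symbols a mean signal under 5 and bars the standard error of the fit. Most circles lie near 0, and those far from it are HAT2 at 1.82 and AT5G13380 at -3.04.

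Each gene was also set beside the genes whose values ran most nearly in parallel. Over the 4 arrays, each probe set's values were taken minus their mean, and the 3 nearest of 1578 other probe sets with a symbol were found by Euclidean distance. With 4 arrays that mostly differ by group, nearness says mainly that 2 genes changed by a like amount. WES1 lay nearest to PPDK, pyruvate orthophosphate dikinase (distance 0.202), then IVD, of leucine breakdown, and ATG8E, of autophagy, with changes of 4.38, 4.78 and 4.16. GH3.17 lay nearest to MYBC1, a MYB-like gene (0.352), ACLA-3, of ATP-citrate lyase, and FIS1B, of organelle fission, whose changes were 2.26, 2.07 and 2.27.

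IAGLU had as its nearest cdc2cAt, a kinase gene of the cyclin-dependent type (0.32), then PLIM2a, a LIM protein gene of pollen, and ANX2, a receptor kinase gene of pollen tubes. These changed by 3.48, 3.76 and 3.85. For IAA18 they were AAE16, an acyl-activating enzyme gene (0.081), the plastid-encoded psbA and RD2, a gene named for its response to desiccation, with changes of 1.01, 0.96 and 1.14. GH3.9 had LOJ (0.0913), NRPE7, of an RNA polymerase subunit, and IQD23, with changes of -0.963, -0.997 and -0.851. Among the 5 genes themselves, GH3.17 and IAA18 were the nearest pair (1.36), and WES1 and GH3.9 the farthest apart (5.47).

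**Figure D4:**
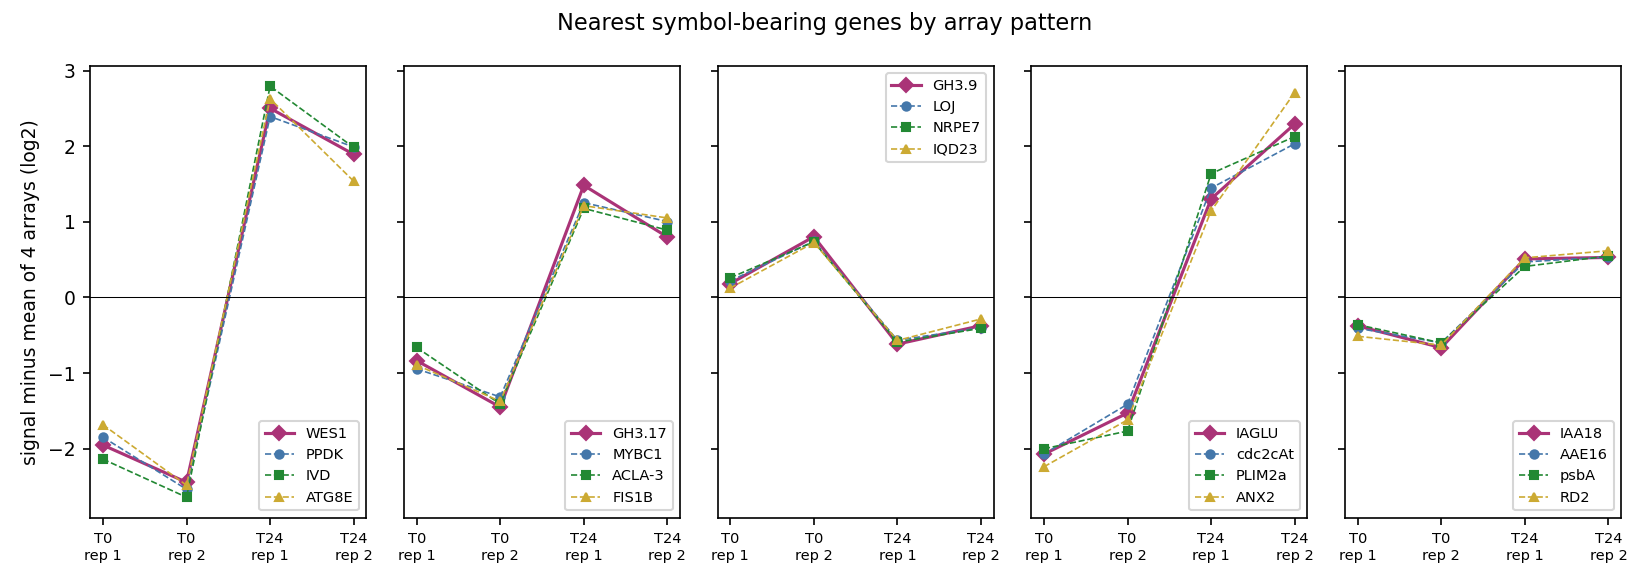
Signal minus the mean of the 4 arrays (log2, vertical axis) on each array for WES1, GH3.17, GH3.9, IAGLU and IAA18 (solid lines) and for the 3 nearest genes of each (dashed lines); lines only join the arrays. The steps between T0 and T24 in each panel are of like size, such as 4.39 for WES1 and 4.38 for PPDK.

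The tissue is a mixture of organs, and some markers of its parts differed between T0 and T24 while others did not pass. In bulk RNA, fewer cells of a type and less RNA per cell cannot be told apart. Beside the counts below, limma called 13.2% of all probe sets and 19.7% of those with a mean of at least 5. An unadjusted p under 0.05 was found for 30.4% of all probe sets. With so few genes per list, nothing is read from the counts. Of 5 measured tapetum genes 2 fell and 3 did not pass, and their summed signal (log2 of the sum of linear signals) was 12.31 to 13.79 at T0 and 10.36 to 11.58 at T24. SHT fell by 6.19 ± 0.39 (SE) and ATA27 by 4.50 ± 0.82 (SE), while SWEET8 stood at 0.93 ± 0.30 (SE) and AMS at -0.24 ± 0.29 (SE). The brightest of the 5, AT5G07230, read 12.00 and 10.00 at T0 and 10.48 and 7.63 at T24, with overlapping groups. The single measured pollen marker, the pectate lyase gene AT59, went from 6.60 and 6.19 to 10.56 and 10.63. Of 5 photosynthesis genes 3 fell and 1 rose, with sums of 13.62 to 13.96 at T0 and 12.51 to 12.75 at T24. RCA, the Rubisco activase gene, fell by 1.56 ± 0.18 (SE), and the gene that rose was LHCB4.2, by 1.61 ± 0.28 (SE). Of the 12 listed floral genes 4 were measured; limma called 0 of them, 0 had an unadjusted p under 0.05, and their sums were 7.96 to 8.28 at T0 and 8.14 to 8.76 at T24. Among these, the defining markers UFO and CLV3 were near the background in both groups, while SPT and SPL had means of 7.71 and 5.77 over the 4 arrays. The part of these shifts in the values of the 5 genes was not tested.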

How the data were processed

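The authors deposited 1 table of log2 signals for 22746 probe sets from 4 arrays. RMA made the signals, per the submitters' processing notes, with the version not given in the sources used here. That the base is 2 follows RMA's usual output and the range of the values. Array medians ran from 6.08 to 6.29. RMA signals carry no detection call, and for 35.5% of probe sets the mean over the arrays was under 5. Precision is limited by the number of arrays.

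Gene names came from the platform annotation, replaced by those of the RefSeq table for TAIR10.1 where the gene identifier matched; that table served for names and gene order only. Of the 22746, 13513 were paired with 1 gene (13436 of them matched the table), 503 with several and 8730 with none. Groups and replicate numbers came from the sample titles. T24 was compared with T0 over all probe sets in R 4.3.3 with lmFit and eBayes of limma 3.58.1, without covariates, with Benjamini-Hochberg adjustment and calls at an adjusted p under 0.05; the fit was tested on simulated data. Every SE and adjusted p comes from limma. The genes and lists were chosen with earlier results of these data known. From each list the text names up to 4 calls in each direction, or else the gene with the highest mean. All genes may be named in a list with at most 5 measured, and other genes named were chosen after their values were seen. From the marker lists it names the brightest gene of a list and others chosen after their values were seen. A search of gene symbols and synonyms, not of descriptions, for auxin or indole-3-acet matched 102 genes outside the lists. Of these, 0 had a probe set paired with them alone. The alternatives were a trended and a robust variance model, quantile normalization, median centring, a filter at a mean of 5, the replicate number as a block, and leaving out each array.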

Additional observations from a re-analysis of the deposited data

How the results depend on the processing

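The count of 3010 called probe sets stayed within 1.5 times under the trend, the robust model, quantile normalization, median centring and the filter (2764 to 3240), rose to 6528 under a replicate block, that is with the replicate number as a term, and was 0 with any 1 array left out. Of the 27 other genes of the auxin lists 1 was called (HAT2), against 2 with the trend and with the filter (HAT2 and AT5G13380). With the replicate block 3 were called (also AT1G14130, adjusted p 0.0314 in limma). Under the block GH3.9 gained a call (adjusted p 0.0367 in limma), and WES1, GH3.17, IAGLU and IAA18 kept theirs. The difference between replicates 1 and 2 at T0 and that at T24 had a correlation of 0.63 over probe sets; the labels tie no batch to a number, and 2 pairs are too few to settle it. Without 1 array the changes were 4.09 to 4.70 for WES1, 1.94 to 2.62 for GH3.17, 3.103 to 4.092 for IAGLU, 0.90 to 1.18 for IAA18 and -1.30 to -0.68 for GH3.9; since the groups do not overlap, it could not turn a direction. Median centring moved every change by 0.16, IAA18 to 1.195 and GH3.9 to -0.83, raised the share of higher calls from 48.3% to 58.2%, and turned the uncalled changes of AT1G14120 (to 0.0175) and LBD16 (to 0.0819). Leaving out arrays also turned uncalled genes, with ranges of -1.48 to 0.56 for UGT74D1, -0.00776 to 0.194 for UGT84B1, -0.13 to 0.32 for UGT84B2, -0.291 to 0.0146 for AT1G14120, -0.21 to 0.59 for YUC6, -0.20 to 0.25 for YUC11, -0.166 to 0.0187 for LBD16 and -0.10 to 0.37 for LBD29. A group of 1 array borrows its spread from the other group in these fits. No direction changed for a gene called in either fit.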

Other observations

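Genes beside the 5 in the gene table's order were looked up after the data had been seen. Of the 20 protein-coding genes within 2 places of WES1, GH3.17, GH3.9, IAGLU or IAA18, 11 were measured by name, and in limma 0 were called higher, 1 was called lower and 10 were not called, where 6.39% of all probe sets were called higher and 6.84% lower. With so few genes these counts do not stand apart from that background. AT4G27270, next to WES1, fell by 1.62 ± 0.22 (SE; adjusted p = 0.0273 in limma), from 6.37 and 6.77 at T0 to 4.99 and 4.92 at T24. Next to IAGLU, AT4G15545 read 10.80 and 10.42 at T0 and 11.87 and 11.26 at T24, a change of 0.95 ± 0.30 (SE) that did not pass (adjusted p = 0.129 in limma). SCPL45, on the other side of 1 gene from GH3.17, stood at -1.81 ± 0.46 (SE; adjusted p = 0.0812 in limma).

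The 47 genes with a UGT symbol are part of the wider family of glycosyltransferases to which IAGLU belongs. Members given under another symbol, as IAGLU is, or by locus code only were not counted. Of the 47, 3 rose and 5 fell in limma, with a median change of -0.02, against 13.2% of all probe sets called. This group was also formed after the data had been seen. All 8 calls were among the 21 UGT genes with a mean of at least 5, where 19.7% of all such probe sets were called. UGT87A2 rose by 2.78 ± 0.49 (SE; adjusted p = 0.0407 in limma) and UGT84A3 by 1.94 ± 0.30 (SE; adjusted p = 0.0321 in limma). UGT74B1, of glucosinolate synthesis, fell by 2.36 ± 0.23 (SE; adjusted p = 0.0174 in limma). The changes of these 47 genes ran from -2.36 to 2.78, and 26 of the 47 had a mean under 5, where differences are compressed. IAGLU was chosen with its change of 3.60 known, so it is not ranked against them.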
